A study of Mus musculus with 22 samples.

Results

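The 8 tumours described here are end-stage mammary tumours of mice whose titles combine MMTV_T121, WAPCre, p53coco and Brca1coco on a background written as MIXED. Every array with this combination in its title was taken, which gave 8 of the 22 arrays of the series. Each array compared RNA of 1 tumour, labelled with Cy5, with a whole-mouse total RNA reference labelled with Cy3. The value used throughout is the log2 ratio of tumour over reference, so 0 stands for equal signal and a positive value for more signal from the tumour. They were set against 2 other groups where this is said: 4 tumours labelled MMTV_T121, WAPCre and p53coco without Brca1coco, and 1 tumour labelled WAPCre, p53coco and Brca1coco without T121, both also MIXED. For a set of spots that moved together, values of 4 WAP_T121 tumours are given as well. Those are labelled BALBc or B6D2F1, with p53null, p53het or no p53 term and without Cre. The remaining arrays enter only where all 22 arrays are named. Their labels are MMTV_T121 with WAPCre and p53cohet or p53cococ, and MMTV_T121 with MMTVCre and p53cohet. Others read TgMFT121 or TgMFT21 with TgWAPCre and p53coco, and all of these are MIXED. The p53cococ tumour was not counted among the 4. The labels do not spell out coco or cohet, and they give neither age nor parity nor whether tumours came from separate animals. The p-values below therefore measure the spread between these 8 arrays, which may be technical in part, and they leave out the spread of the reference itself. No array had its dyes exchanged, so tumour and Cy5 cannot be told apart on any single spot. The number of arrays limits the precision.

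T121 is a fragment of the SV40 large T antigen that binds the Rb family of pocket proteins (Rb, p107 and p130). These proteins hold E2F transcription factors in check, and their loss releases genes of DNA replication. p53 is a transcription factor that halts division or starts cell death after damage, and Brca1 is needed for repair of broken DNA by homologous recombination. The WAP promoter is that of whey acidic protein, a milk protein made by secretory cells of the mammary gland. The MMTV promoter is active in mammary epithelium and in some other glandular epithelia. The mammary epithelium has an inner luminal layer, made of secretory and hormone-sensing cells and their progenitors, and an outer basal layer of contractile myoepithelial cells.

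Of 22575 spots per array, 16380 were tested, of which 14718 could be named and stood for 13573 genes. A spot was tested if it was neither a control nor marked unusable on any of the 8 arrays, and rose above the local background by 2 background SD in either channel on at least 6. Replicate 1 stood apart from the other tumours. Its log2 ratios had a Pearson r of 0.667 to 0.751 with each of the others over the tested spots, while the medians for the other 7 lay between 0.777 and 0.856. In the reference channel its median r with the other arrays was 0.970, and the other arrays lay between 0.957 and 0.973. Replicate 2 was dim, with 25.6% of spots above background in the tumour channel, against 50.8% to 74.4% on the other arrays. These shares are over the 20136 spots that were neither control nor marked unusable, including those too dim to be tested. The arrays mark different spots as controls, and by the reference signal of the spots so marked on only some arrays they fell into 2 array sets, with replicates 7 and 8 in set 2 and the other 6 in set 1. No spot differed between the array sets by limma's moderated test (smallest adjusted p = 0.306, 1410 spots at an unadjusted p under 0.05).

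Brca1 is the gene named in the label, and its spot was not low in these tumours. Its log2 ratios were 0.32, 0.82, 1.73, 1.37, 1.29, 0.74, 0.54 and 0.77 in replicates 1 to 8, with a mean of 0.95 ± 0.47 (SD, n = 8; limma adjusted p = 0.000578). All 8 tumours were above the reference. In the 4 tumours labelled p53coco alone the values were 0.54, 0.14, 0.80 and 1.44, of which only 0.14 lay outside the range of the 8, and the difference between the groups did not pass limma's test (adjusted p = 0.84). Where the probe lies relative to any deleted part of Brca1 is not given in the sources used here, so the spot checks neither the label nor the deletion. No spot of Trp53 was among those tested.

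By the moderated test of limma with Benjamini-Hochberg adjustment, 3902 of the tested spots (23.8%) were higher in the tumours than in the reference and 4933 (30.1%) were lower. Spots are called below if they also differed by at least 1 on the log2 scale. This left 760 spots called higher (4.64%), for 646 named genes, and 1891 called lower (11.5%), for 1650 named genes. All 8 tumours lay above 0 for 639 of the spots called higher, and all 8 lay below 0 for 1777 of those called lower. Of all calls, 28.7% were higher. With each array centred on its median in place of the loess curve, 51.8% were higher (1599 higher and 1489 lower). Uncentred arrays gave a share of 32.8%, and keeping the dim spots gave 28.6%. Among the 4821 spots above background in both channels on all 8 arrays 51.2% were higher, but that filter itself removes spots that are low in the tumours. On 158 of the spots called lower the tumour signal was not above background in any of the 8 tumours, so their size is only a bound.

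**Figure D1:**
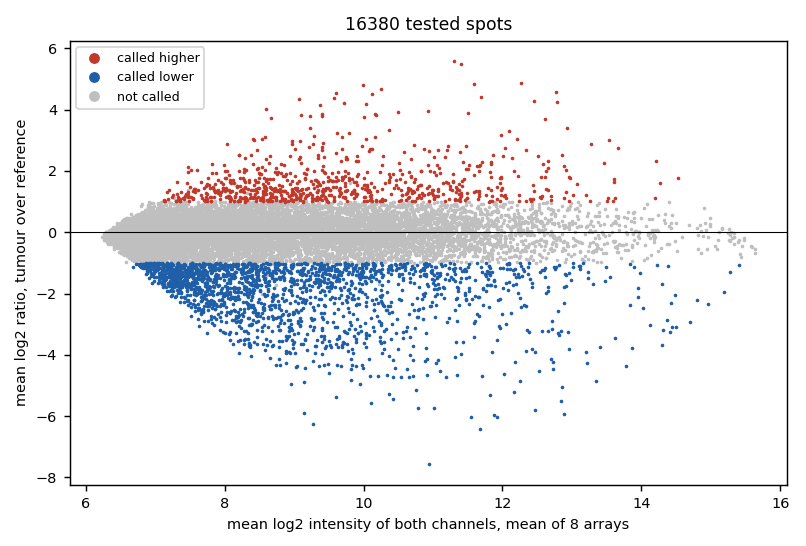
Mean log2 ratio of tumour over reference of each tested spot (vertical axis) against the mean log2 intensity of both channels (horizontal axis), over the 8 arrays, with called spots in colour. The 1891 spots called lower outnumber the 760 called higher, most visibly at the dim end.

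Most listed genes of luminal epithelium were higher in the tumours than in the reference. This list, like the others, was chosen with earlier results of these data known, so its counts are a description. Of the 12 luminal genes measured, 9 were higher than the whole-mouse reference, none was lower and 3 did not pass, against 23.8% and 30.1% of all tested spots. Their median log2 ratio was 1.06, while the median of all tested spots was -0.01. Krt18, a keratin of simple and luminal epithelium, had log2 ratios with a lowest value of 1.95, a median of 2.77 and a highest of 3.53. All 8 tumours were well above the reference, by 6.73-fold on average (2.75 ± 0.61, SD, n = 8; adjusted p = 2.42e-06). The tumour signal of Krt18 was at 50000 or more on 4 of the 8 arrays, near the top of the scanner's range, and that of Aqp5 and Tm4sf1 on 3 each, so their folds are approximate. In the scans, background-subtracted Krt18 intensity had a median of 50202 in the tumour channel and 3708 in the reference channel. Its partner keratin Krt8 ran from 0.50 to 2.69 with a median of 2.01, and the epithelial adhesion molecule Epcam from 0.88 to 3.12 with a median of 2.02. Both passed, with means of 1.80 ± 0.72 and 2.05 ± 0.84 (SD, n = 8). The tight junction genes Cldn3, Cldn4 and Cldn7 were also higher, with means of 1.99, 0.92 and 0.91. So were the ETS transcription factors Ehf and Elf3, with means of 1.99 and 0.90, and Prom1, a membrane protein of luminal cells, with a mean of 1.20. Krt19 (0.25 ± 1.31), Cdh1, the adhesion protein E-cadherin (0.29 ± 0.69), and Ovol1 (0.14 ± 0.27) did not pass. These results are relative to RNA of the whole animal, in which epithelium is only a part, and in bulk tissue more cells of a type and more RNA per cell cannot be told apart.

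Of 8 listed genes of hormone-sensing luminal cells, 4 were measured, and 1 was higher, 1 was lower and 2 did not pass. These counts are near the shares of all tested spots (23.8% higher and 30.1% lower) and say nothing about the list. The spot of the oestrogen receptor Esr1 was not above background in any of the 8 tumours. Foxa1, the factor that opens chromatin for that receptor, was not above background in any of them either, and was at least 1.36-fold lower than the reference (adjusted p = 0.000478). Xbp1, a factor of the secretory pathway, was higher in all 8 tumours (1.10 ± 0.28, SD, n = 8). Gata3, a factor of luminal identity, was between 0.94 and 2.62 in 7 tumours and at -3.01 in replicate 1. Over all 8 it did not pass (adjusted p = 0.115), and without replicate 1 it did, with a mean of 1.65 (adjusted p = 0.000173).

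Of 8 measured basal genes, 5 were lower, 1 was higher and 2 did not pass, where 30.1% of all tested spots were lower and 23.8% higher, with a median log2 ratio of -0.65. The basal keratin Krt5 had a lowest value of -3.45, a median of -2.84 and a highest of -1.47. All 8 tumours were below the reference (-2.64 ± 0.67, SD, n = 8; adjusted p = 6.14e-06). The contractile genes Acta2 (-1.79 ± 0.46) and Myh11 (-2.35 ± 0.48) were lower too, as were Trp63, the p53 relative that marks basal cells (-0.67 ± 0.77), and Mylk (-0.36 ± 0.19). The second Mylk spot stood at 0.12 and did not pass. Both contractile genes are also smooth muscle genes, and the reference holds the smooth muscle of the whole animal. Egfr, the epidermal growth factor receptor, was higher in all 8 tumours (0.86 ± 0.43). Krt14 and Krt17 did not pass, with replicate 1 far above the rest at 2.81 and 1.95, and the other 7 at 0.36 or below and -0.66 or below. Without replicate 1, Krt17 was lower at -1.0 (adjusted p = 0.000222) and Krt14 stood at -0.06.

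Several genes that are background markers of luminal progenitors or alveolar cells were also called higher, and were picked out after their values were seen. Kit, a receptor of luminal progenitors, ran from -0.54 to 2.38 with a median of 2.19, and Elf5, the ETS factor of alveolar cells, from -1.94 to 3.33 with a median of 2.41. Replicate 1 gave the lowest value for both and was the only tumour below 0 for either. Means over the 8 were 1.67 ± 1.06 (adjusted p = 0.00196) and 1.92 ± 1.65 (adjusted p = 0.00929). Aqp5, a water channel of secretory glands, was high and even, at 3.80 to 4.95, with a mean of 4.25 ± 0.38 (adjusted p = 2.75e-08). The innate immune genes Lcn2 (3.90 ± 0.71) and Cd14 (3.87 ± 0.85), which milk-producing epithelium also makes, were high in all 8 tumours. Sox10, a factor of neural crest and of some mammary cells, had a mean of 2.34 ± 0.53, and the forkhead factor Foxc1 one of 2.19 ± 0.38. All 8 tumours were above 1 for both.

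Milk genes were higher, by very different amounts in different tumours. Of 7 measured, 5 passed as higher (23.8% of all tested spots did), none was lower and 2 did not pass, with a median log2 ratio of 2.12. Csn3, kappa casein, had values of -0.27, 4.97, 5.78, 5.96, 5.24, 4.92, 6.33 and 5.70 in replicates 1 to 8. It was therefore at the level of the reference in replicate 1 and far above it in the other 7 (4.83 ± 2.12, SD, n = 8; adjusted p = 0.000182). Csn2, beta casein, was at -0.15, 0.13, 7.41, 2.44, 1.80, 0.86, 1.79 and 2.71. Replicate 3 was far above the other 7. The Csn2 reference signal was above background on only 3 of the 8 arrays, so these ratios are approximate. Its mean of 2.12 ± 2.37 passed (adjusted p = 0.0305). The spread between the 8 tumours was as large as the mean. The alpha caseins Csn1s1 and Csn1s2a also had their highest value in replicate 3, at 7.16 and 7.21, and their lowest in replicate 1, at -0.17 and -1.88. Both passed with means of 4.37 and 2.97. Lalba, a subunit of lactose synthase, passed with a mean of 0.96 ± 0.95. Wap, whose promoter drives Cre in these mice, stood at 5.46 in replicate 3 and between -1.23 and 1.47 in the others, and did not pass (adjusted p = 0.313). Glycam1 showed 5.63 in replicate 3 and at most 0.08 elsewhere.

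**Figure D2:**
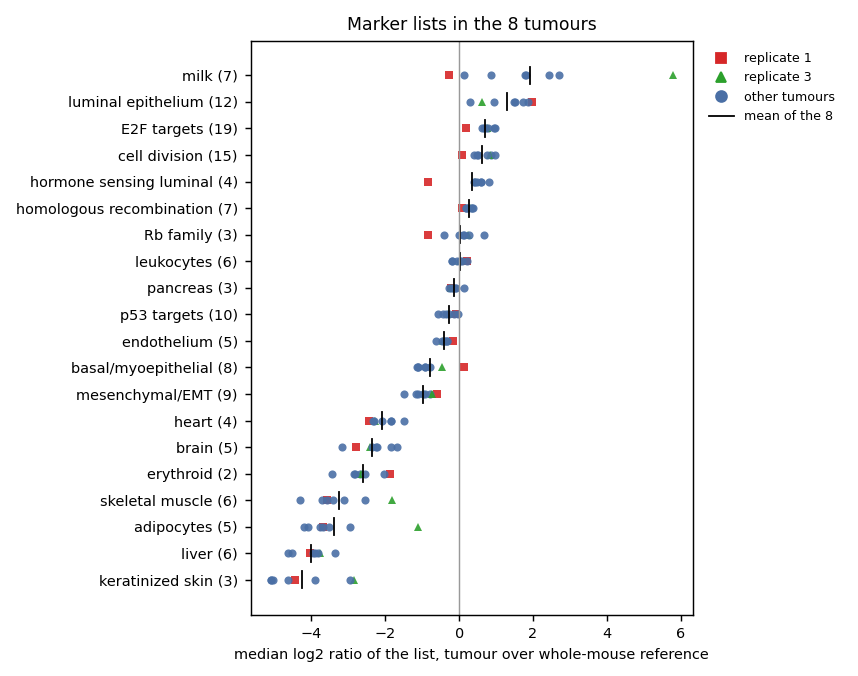
Median log2 ratio of tumour over reference for the measured genes of each marker list (number in brackets), with 1 point per tumour and a bar at the mean of the 8 medians. The median of milk genes spans from -0.27 in replicate 1 to 5.78 in replicate 3. The medians of the liver, adipocyte, skeletal muscle, brain and skin lists lie below 0 in every tumour.

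Of 9 measured genes of mesenchyme and of epithelial-mesenchymal transition, 5 were lower, 2 were higher and 2 did not pass, where 30.1% of all tested spots were lower and 23.8% higher, with a median log2 ratio of -1.11. The intermediate filament Vim ran from -1.94 to -0.60 with a median of -1.32, and all 8 tumours were below the reference (-1.34 ± 0.45, SD, n = 8; adjusted p = 4.99e-05). Zeb1 and Snai2, both repressors of epithelial genes, had means of -1.37 ± 0.41 and -2.10 ± 0.37, N-cadherin (Cdh2) one of -1.24 ± 0.55 and the matrix protein Sparc one of -1.11 ± 0.58. Snai1 and Twist1, also transition factors, were higher, at 0.55 ± 0.56 (adjusted p = 0.0243) and 0.43 ± 0.30 (adjusted p = 0.00671). In the 2 tumours of array set 2, Snai1 had a mean of -0.02, and without replicate 1 it did not pass (0.46; adjusted p = 0.0521). The fibrillar collagens Col1a1 (-2.06 ± 0.68) and Col3a1 (-3.02 ± 0.95), outside the list, were lower in all 8 tumours. Replicate 1 was the least low for both, at -0.63 and -1.01.

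Genes of other organs were far lower, which describes the reference as much as the tumours. Of all tested spots, 30.1% were lower and 23.8% were higher. All 6 measured liver genes, all 4 of heart, all 5 of brain, both of erythroid cells and all 3 of keratinized skin were lower, as were 5 of 6 of skeletal muscle, 4 of 5 of adipocytes and 4 of 5 of endothelium. The second spots of Krt1 in the skin list and of Myh1 in the muscle list went the other way, at 0.50 (adjusted p = 0.000496) and 0.35 (adjusted p = 0.138), so these 2 genes are uncertain. The median log2 ratios were -3.91 for liver, -3.49 for adipocytes, -3.22 for skeletal muscle and -0.41 for endothelium. Pancreas genes were the exception among organs, with 1 of 3 lower and a median of -0.06. Among leukocyte genes, 1 of 6 was higher and 2 were lower. These counts are near the shares of all tested spots and say nothing about the list. H2-Ab1, a class II antigen-presenting molecule, was the one higher (1.94 ± 0.70), and the T cell genes Cd3g and Cd8a were lower (-0.27 and -0.72) with only 1 tumour above background each. Whether organ RNA present in the tumour pieces contributes to any result was not tested, apart from the values given here.

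The 12 spots with the lowest mean ratios, among those above background in both channels on all 8 arrays, came from organs with specialised transcripts. Rbp4, the plasma carrier of retinol, led with a lowest value of -7.01, a median of -6.40 and a highest of -5.71. The tumours were thus 85.2-fold lower than the reference on average (-6.41 ± 0.45, SD, n = 8; adjusted p = 9.26e-09). Other plasma protein genes of liver in the set were Ambp (-6.03), Apoh (-6.03), Fgg (-5.82), F2 (-5.75) and Itih3 (-5.16). Igfbp1, a liver-made binding protein of insulin-like growth factors, had a mean of -5.94, with the reference near the top of the scanner's range on 6 of the 8 arrays. The set also held Fabp2 of the intestine (-5.73), Ucp1 of brown fat (-5.32) and the muscle genes Fhl1 (-5.50) and Eno3 (-5.22). Itm2a, a membrane protein of developing cartilage and muscle, was at -5.97. Fhl1 and Eno3 were less low in replicates 3 and 6, at -2.87 and -3.83 for Fhl1 and -3.74 and -3.57 for Eno3. The same 2 tumours had the muscle myosin Myh4 above the reference, at 2.74 and 3.19, while the other 6 were between -3.72 and -2.45. Genes of fetal growth, picked out after the values were seen, were low as well: the imprinted Mest (-4.87 ± 0.53), Dlk1 (-4.47 ± 0.43) and Igf2 (-3.44 ± 0.54), and fetal albumin, Afp (-4.95 ± 0.51), of which 6 tumours were above background.

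**Figure D3:**
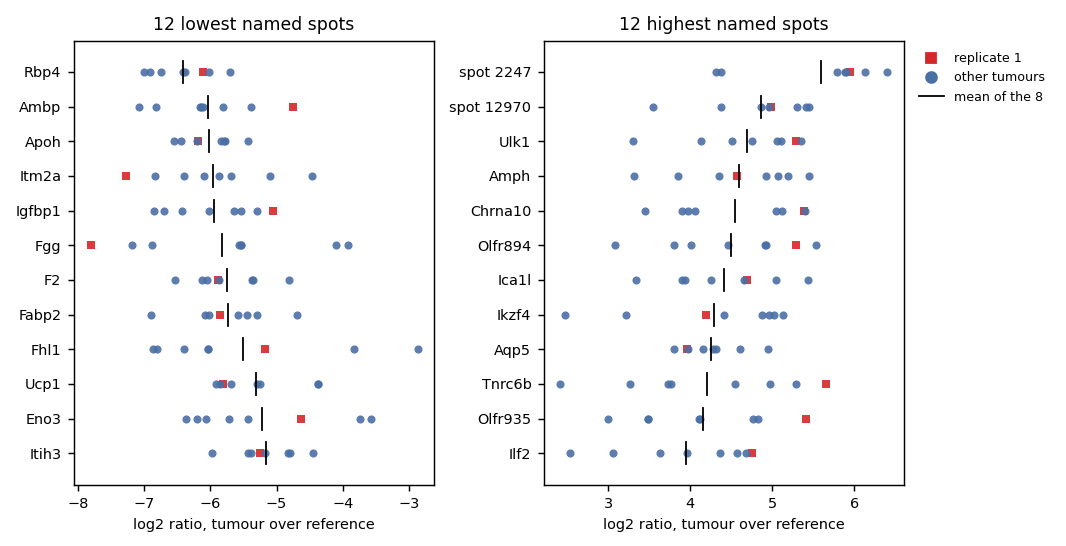
Log2 ratio of tumour over reference in each of the 8 tumours for the 12 lowest and the 12 highest spots among those called, above background in both channels on all 8 arrays and of 1 sign in all 8. Rbp4 lies between -7.01 and -5.71, and Aqp5 is the most even of the highest spots at 3.80 to 4.95.

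Of the 12 spots with the highest mean ratios among those above background in both channels and above 0 in all 8 tumours, which leaves out the caseins, 9 belonged to a set of spots that moved together over all 22 arrays of the series. The set held 16 spots whose log2 ratio had a Pearson r of at least 0.9 with that of the top spot, number 2247, which has no gene name. Members also had to be called higher and above background in both channels on all 8 arrays. Spots that moved alike without this were left out, so 16 is not a count of all such spots. The share of 9 among the 12 is partly built in by this choice. Spot 2247 itself ran from 4.31 to 6.40 with a median of 5.89 in the 8 tumours. In the scans its intensity had a median of 24166 in the tumour channel and 314.5 in the reference channel. Members with names included Ulk1, a kinase that starts autophagy (4.69), Amph, a membrane-bending protein of nerve terminals (4.59), the acetylcholine receptor subunit Chrna10 (4.54), Ica1l (4.41), the lymphoid factor Ikzf4 (4.29), and the odorant receptors Olfr894 (4.5) and Olfr935 (4.15). Over the tested spots of odorant and vomeronasal receptors, 11 of 402 (2.74%) were called higher, below the 4.64% of all spots. Spot 2247 stood at 5.41 in the tumour without T121. In the p53coco tumours it stood at 3.94, 0.92, 5.11 and 4.14, so that replicate 2 was the low one. In the 4 WAP-T121 tumours of the series spot 2247 lay between -0.22 and 0.59. Chil3 and Mmp2, also in the set, lay there between -2.99 and -0.14 and between -2.04 and -0.74. These 4 tumours are labelled BALBc or B6D2F1, not MIXED, and differ from the 8 in promoter, Cre and p53 label as well. Which of these goes with the lower values cannot be told apart. The correlations are over arrays that share a reference and are given as a description. Whether these spots measure the genes they are named for was not tested. Of the 12, Ikzf4 and Tnrc6b have a second spot each, and those stood at -0.35 and -0.15 and did not pass. Tnrc6b (4.2) and Ilf2 (3.94), both RNA-binding proteins, had an r of 0.88 and 0.86 with spot 2247 and so fell just short of the set.

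Outside that set, Aqp5 was the highest named gene by the rule. The next ones, taken after the values were seen as those with an r under 0.8 with spot 2247, included several genes of epithelium. Inhbb, a subunit of activin, had a lowest value of 2.54, a median of 4.0 and a highest of 4.38, so that all 8 tumours were far above the reference (3.75 ± 0.64, SD, n = 8). Acsl4, which activates fatty acids, averaged 3.23 ± 0.91, and Gabrp, a receptor subunit found in epithelia, 3.0 ± 0.90. Gpx2, a glutathione peroxidase of epithelium, averaged 2.93 ± 0.71, the actin-capping protein Capg 2.82 ± 0.54, Sdc4, a cell-surface proteoglycan, 2.82 ± 0.60, and Fxyd3, an epithelial regulator of ion pumps, 2.79 ± 0.73. Wfdc18, a mammary protease inhibitor also known as Expi, averaged 2.89 ± 1.20, with replicate 1 at 0.36 and the other 7 between 2.26 and 4.03. The neutrophil chemokine Cxcl1 averaged 3.05 ± 1.33, with replicate 1 highest at 5.87 and the other 7 between 1.90 and 3.87.

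Genes of cell division were higher in the tumours. Of 15 measured, 13 were higher (against 23.8% of all tested spots), 1 was lower and 1 did not pass, with a median log2 ratio of 0.62. Aurka, a kinase of the spindle poles, ran from 0.89 to 1.92 with a median of 1.18, and was the one gene of the list that was called (1.29 ± 0.35, SD, n = 8; adjusted p = 1.67e-05). Plk1, a mitotic kinase, was the most even at 0.96 ± 0.14. Ccna2 (0.78 ± 0.52), Cdk1 (0.57 ± 0.69) and Foxm1, the factor that turns on mitotic genes (0.45 ± 0.19), passed as well. Mki67, the gene of the Ki-67 antigen, went the other way and was below the reference in all 8 tumours (-0.98 ± 0.49; adjusted p = 0.000604). Cenpe did not pass (0.40 ± 0.60). The list median was lowest in replicate 1, at 0.08, and lay between 0.40 and 0.98 in the other 7.

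Genes that E2F factors are known to activate were higher too. Of 19 measured, 15 were higher (against 23.8% of all tested spots), none was lower and 4 did not pass, with a median log2 ratio of 0.62. Cdkn2a, which codes for p16 and p19Arf and is an E2F target that loss of Rb or p53 function is known to raise, was the highest. Its values were 2.40, 1.44, 1.81, 2.64, 2.09, 1.6, 2.24 and 2.01 in replicates 1 to 8, all above the reference (2.03 ± 0.40, SD, n = 8; adjusted p = 1.69e-06). In the 4 p53coco tumours they were 1.37, 0.11, 1.85 and 0.36, and the difference between the groups did not pass (adjusted p = 0.237). The replicative helicase subunits Mcm2 and Mcm3 were called, at 1.46 ± 0.35 and 1.03 ± 0.61. So were the sliding clamp Pcna (1.18 ± 0.44) and thymidine kinase Tk1 (1.22 ± 0.33). Mcm4, Mcm5 and Mcm7 passed with means of 0.69, 0.79 and 0.49, and Mcm6 did not (0.38 ± 0.75), with replicate 1 at -1.16. Without replicate 1, Mcm6 passed at 0.59 (adjusted p = 0.00912). The cyclins Ccne1 (0.05 ± 0.41) and Ccne2 (0.12 ± 0.35) and the inhibitor Cdkn2c (0.05 ± 0.50) did not pass. E2f1 itself was higher, at 0.50 ± 0.22, with 4 of the 8 tumours above background.

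The promoters of the E2F list are shown because 15 of its 19 measured members were higher. The letters TTTCCCGC, TTTGGCGC, TTTCGCGC and TTTGCCGC, which match the E2F consensus, were searched on both strands in the 250 bases before the start of each gene, in RefSeq's promoter table of build GRCm38.p6. At least 1 was found for 5 of 17 E2F list genes in the table (29.4%), for 1 of 12 cell division genes (8.33%) and for 3.33% of the 10882 genes with a tested spot. Over all 32851 promoters the share was 1.86%. The 5 genes were Cdkn2a, Mcm5, Mcm7, Cdc6 and Mcm6. They stood both at the top of the list (Cdkn2a, 2.03) and among those that did not pass (Mcm6, 0.38). A match is a description of these letters and not of binding. In the sequences of 3 of them the matches are in capitals. Mcm5 has 2 that overlap, and Mcm6 has 3, of which 2 overlap. The regions are chr4:89294620-89294869 on the minus strand for Cdkn2a, chr8:75109259-75109508 on the plus strand for Mcm5 and chr1:128359706-128359955 on the minus strand for Mcm6, each written 5′ to 3′ along its gene.
Cdkn2a: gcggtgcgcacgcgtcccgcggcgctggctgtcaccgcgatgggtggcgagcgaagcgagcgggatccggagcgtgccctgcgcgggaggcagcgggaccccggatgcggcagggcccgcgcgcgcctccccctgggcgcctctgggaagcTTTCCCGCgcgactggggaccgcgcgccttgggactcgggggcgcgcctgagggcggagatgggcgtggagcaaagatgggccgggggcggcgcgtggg
Mcm5: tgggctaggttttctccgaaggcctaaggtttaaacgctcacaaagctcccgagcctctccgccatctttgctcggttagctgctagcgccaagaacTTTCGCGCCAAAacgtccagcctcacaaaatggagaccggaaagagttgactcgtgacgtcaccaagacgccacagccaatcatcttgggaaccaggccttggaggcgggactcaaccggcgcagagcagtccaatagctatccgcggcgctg
Mcm6: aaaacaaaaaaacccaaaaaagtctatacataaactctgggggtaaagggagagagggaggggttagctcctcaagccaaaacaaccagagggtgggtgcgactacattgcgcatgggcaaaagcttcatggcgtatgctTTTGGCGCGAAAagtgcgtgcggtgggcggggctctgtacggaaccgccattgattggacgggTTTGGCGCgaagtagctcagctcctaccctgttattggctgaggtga

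Among the Rb family genes themselves, Rb1 was lower (-0.46 ± 0.33, SD, n = 8; adjusted p = 0.0069) and all 8 tumours were below the reference. Rbl1 (p107) and Rbl2 (p130) did not pass, at 0.11 ± 0.59 and 0.24 ± 0.25. Of 10 measured genes that p53 activates, 5 were lower, 2 were higher and 3 did not pass, where 30.1% of all tested spots were lower and 23.8% higher, with a median log2 ratio of -0.29. Without replicate 1, 1 was higher, 5 were lower and 4 did not pass. Cdkn1a, the cell cycle inhibitor p21, was at 0.11 in replicate 1 and between -2.06 and -1.0 in the other 7. Its mean of -1.22 ± 0.65 was called (adjusted p = 0.00073). Sesn1, a stress-response gene, was lower in all 8 tumours, from -1.40 to -0.68 with a median of -1.10 (adjusted p = 8.71e-06), and its dimmer second spot was lower at -0.63. Ccng1, Zmat3 and Trp53inp1 were lower by smaller amounts, with means of -0.50, -0.50 and -0.76. Sesn2 (0.51 ± 0.35) and the death receptor Tnfrsf10b (0.37 ± 0.38) were higher. Mdm2, which degrades p53 (0.21 ± 0.21), Phlda3 and Bbc3 did not pass. Both T121 groups carry the p53coco label, and no p53 target passed the test of the difference between them (smallest adjusted p = 0.325).

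Of 7 measured genes of homologous recombination, 4 were higher, including Brca1, and 3 did not pass, where 23.8% of all tested spots were higher. Its partner Bard1 averaged 0.43 ± 0.16, the helicase Brip1 0.25 ± 0.25 and Rad54l, a motor protein of strand exchange, 0.19 ± 0.12. Brca2 (-0.09 ± 0.37), Palb2 (0.01 ± 0.10) and Blm (0.27 ± 0.43) did not pass. Without replicate 1, Blm passed at 0.40 (adjusted p = 0.00363), which made 5 of 7 higher. Bard1 and Rad54l were above background in only 2 of the 8 tumours, and without any centring of the arrays Brip1 and Rad54l stood at -0.0048 and -0.11.

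Genes of antigen presentation were called higher outside the leukocyte list, and were picked out after their values were seen. B2m, the shared subunit of class I molecules, ran from 0.86 to 3.11 with a median of 1.87 (1.98 ± 0.64, SD, n = 8; adjusted p = 3.07e-05). The class I gene H2-D1 averaged 1.85 ± 0.48. The class I gene H2-Q7 has 10 spots on the array, and their means lay between 1.87 and 2.52. Spots of H2-Q7 and H2-K1 may share signal with near-identical family members. The class II chaperone Cd74 averaged 1.40 ± 0.68.

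Single tumours departed from the rest in many genes. For each tested spot, the tumour farthest from the other 7 was called outlying when its gap to the nearest value, as a share of the whole range, exceeded Dixon's critical value. Replicate 1 was the outlying tumour in 1455 spots, 8.88% of those tested, of which 848 were high and 607 low. The other tumours were outlying in 23 to 220 spots each. The gene of caveolin 2, Cav2, has 10 spots, and all of them gave replicate 1 between 5.02 and 5.85, while no other tumour passed 2.25. Its spots differed from each other within an array by an SD of 0.23, against an SD of 1.69 between tumours. Replicate 1 was also high in the mesothelial and ductal antigen Msln, at 4.02 against -2.06 to 0.49 in the others, in Padi3, an enzyme of hair and skin, at 3.15 against -0.93 to -0.59, and in the myeloid receptor Clec4d, at 5.09 against 0.06 to 1.31. Krt19 was at 3.28 in replicate 1 and at most 0.44 elsewhere.

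The genes that were low in replicate 1 included factors of the luminal lineage. Tfap2c was at -0.95 in replicate 1 and between 2.80 and 3.64 in the other 7, and Gata3 and Elf5, described above, behaved alike. Some genes known from cartilage were low in replicate 1 too, and were picked out after their values were seen. Comp, a matrix protein of cartilage, was at -3.12 in replicate 1 and between 1.55 and 3.69 in the other 7. Over all 8 its mean of 2.19 ± 2.25 passed (adjusted p = 0.0212). Snorc, a chondrocyte proteoglycan, was at -2.45 in replicate 1 and between 1.24 and 4.12 elsewhere, and Col9a1, a chain of collagen IX, at -2.60 and between 1.10 and 3.0. The other 2 chains of that collagen, Col9a2 and Col9a3, were at -1.92 and -2.47 in replicate 1 and at least 0.70 and 1.16 in the other 7, and did not pass over all 8 (adjusted p = 0.0612 and 0.0727). Col2a1, the main collagen of cartilage, was not raised and stood at -2.15 ± 0.86. For Krt18 (2.50), Epcam (1.92) and Aqp5 (3.96), replicate 1 lay within the range of the other 7.

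**Figure D4:**
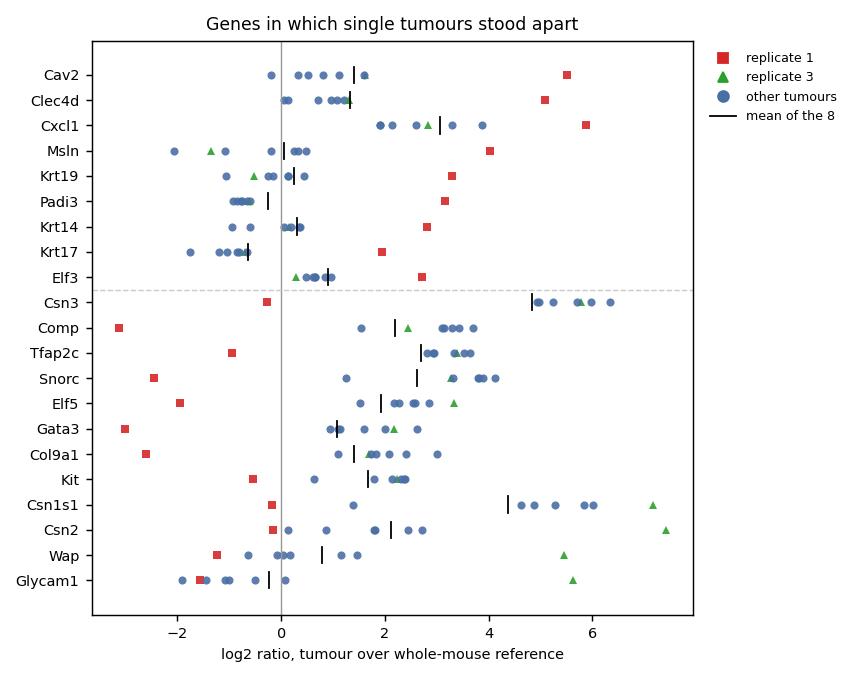
Log2 ratio of tumour over reference in each tumour for genes in which replicate 1 was high (above the dashed line) or low, and for milk genes, with a bar at the mean of the 8. Replicate 1 is near 5.5 for Cav2 and at -3.12 for Comp, and replicate 3 is the highest for Csn1s1, Csn2, Wap and Glycam1.

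Replicate 3 was set apart by genes of glands and of surrounding tissue. The salivary secretory genes Mucl1 and Mucl2 were at 4.56 and 5.09 in replicate 3 and between -4.45 and -1.34 in the other 7. Kallikrein genes known from the submandibular gland were high in the same tumour: Klk1b5 at 3.29, Klk1b11 at 3.60 and Egfbp2 at 3.47, with all other tumours below 0. Near-identical members of this family may share signal on these spots. The same tumour had the highest Csn2, Wap and Glycam1 values, and was the least low of the 8 in adipocyte genes, with a list median of -1.11 against -4.18 to -2.95 in the others. Without replicate 3 the counts called were 734 higher and 1903 lower. The part that salivary, fat or muscle tissue in the tumour piece has in these values was not tested.

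Between the 2 groups of T121 tumours few spots passed the test of the difference. With 8 and 4 arrays, spots that did not pass may still differ. By limma's test of the difference, 2 of 16380 spots passed (0.0122%), with 1699 at an unadjusted p under 0.05. Tm4sf1, a surface protein of the tetraspanin-like L6 family, was at 2.80 to 3.93 with a median of 3.42 in the 8 p53coco Brca1coco tumours, and at 1.55, 1.05, 1.92 and 1.05 in the 4 p53coco tumours. The difference was 2.01 on the log2 scale (SE 0.24, adjusted p = 0.017). Stat2, a transducer of type I interferon signals, was at -0.22 to 0.69 with a median of 0.21 in the 8 tumours, and at 1.45, 1.81, 1.88 and 2.41 in the 4. The difference was -1.65 (SE 0.19, adjusted p = 0.017). Both spots were picked out of 16380 by this test, so the gap between the values of the groups adds no support. Stat2 was dim, with a median tumour intensity of 102.5 and 6 of the 8 tumours above background. The array sets were unequally shared, with 6 of the 8 tumours but only 1 of the 4 in set 1. Within set 1 the difference was 1.88 for Tm4sf1 and -1.23 for Stat2, and within set 2 it was 1.97 and -1.74. With array set as a term in the fit neither gene passed (adjusted p = 0.0975 and 0.0686). The 2 spots that did were Cyp26b1 and the unnamed spot 17837. With all 22 arrays in limma's fit Tm4sf1 passed (adjusted p = 0.0478) and Stat2 did not (adjusted p = 0.12). By the same test Tm4sf1 did not pass without replicate 5 of the 8 (adjusted p = 0.0564) or without p53coco replicate 2 (adjusted p = 0.0626). When replicate 4 of the 8, or replicate 4 of the 4, was left out, no spot passed by limma (1328 and 1551 at an unadjusted p under 0.05), while the differences stayed at 2.01 and 1.89 for Tm4sf1 and -1.63 and -1.47 for Stat2. Among the 4, p53coco replicate 2 stood apart, with a median of -1.37 for luminal genes and 1.72 for skeletal muscle genes, where the other 3 lay between 1.92 and 2.09 and between -4.22 and -3.38.

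Leaving out replicate 1 of the 8 raised the number of spots that passed to 60 of 16380, for 50 named genes. Of these spots 35 were higher and 25 lower in the remaining 7. Leaving out any other single tumour gave 0 to 9. Replicate 1 had already been seen to stand apart in these same data, so the account below is a description. All 10 spots of Bambi, a decoy receptor that dampens TGF-beta signals, were among the 60. The first of these was at -1.65 in replicate 1, at 0.64 to 1.09 in the other 7 and at -0.93 to -0.35 in the 4 p53coco tumours. Ecrg4, a secreted protein precursor, was at -0.66 in replicate 1, at 2.11 to 3.97 in the other 7 and at -1.58 to -0.05 in the 4 (difference 4.23 for 7 against 4; adjusted p = 0.00173). Lef1, a nuclear factor of Wnt signalling, Foxa3, a forkhead factor known from liver, and Snorc followed the same pattern, with differences of 2.63, 2.66 and 4.07. Lower in the 7 were Xdh, the enzyme xanthine dehydrogenase, with a difference of -2.40, and the interferon-inducible genes Ifi204 and Ifi205, with differences of -2.36 and -2.26. These genes were named after their values were seen. With replicate 1 included, Ecrg4, Lef1, Snorc, Xdh and Ifi205 had adjusted p-values of 0.109, 0.211, 0.28, 0.0979 and 0.0979. Bambi, Foxa3 and Ifi204 did not pass either. With all 12 tumours no member of the 20 marker lists passed the test of the difference (smallest adjusted p = 0.145, for Twist1). With 1 tumour left out, Twist1 passed without p53coco replicate 2 (adjusted p = 0.0469), Myh11 without replicate 2 of the 8 (0.0169) and Adipoq without replicate 3 of the 8 (0.0229).

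**Figure D5:**
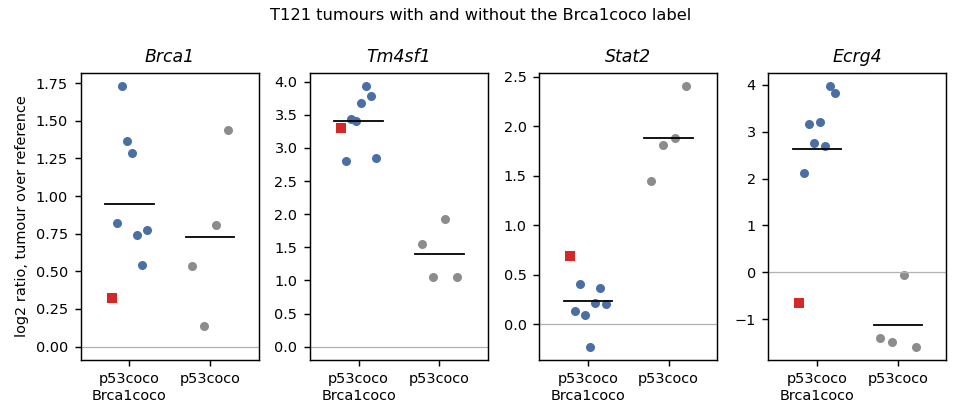
Log2 ratio of tumour over reference for Brca1, Tm4sf1, Stat2 and Ecrg4 in the 8 p53coco Brca1coco tumours (left, replicate 1 as a square) and in the 4 p53coco tumours (right), with a line at each mean. The groups overlap for Brca1. Tm4sf1 and Stat2 were picked by the test of this difference, and Ecrg4 after its values were seen. For Ecrg4 only replicate 1 lies among the p53coco tumours.

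The tumour labelled p53coco and Brca1coco without T121 is a single tumour and allows no test, so its values are set beside those of the 8. For each list named here, the median of the 8 tumours' own list medians, with their range, is followed by the list median of this tumour. Luminal genes stood at 1.49 (0.30 to 1.98) in the 8 and 0.89 without T121. E2F targets stood at 0.75 (0.18 to 0.96) and 0.66, and cell division at 0.63 (0.08 to 0.98) and 0.29. Milk genes stood at 1.79 (-0.27 to 5.78) and 2.0, and basal genes at -0.92 (-1.13 to 0.13) and -1.53. Among these lists only the basal value lay outside the range of the 8. Of the lists not named here, that of leukocytes did too, at 0.26 without T121 against -0.21 to 0.22 in the 8. Tm4sf1 and Stat2 had means of 3.40 and 0.24 in the 8, against 3.59 and 0.70 in the tumour without T121. Ecrg4 and Snorc had means of 2.63 and 2.62 in the 8, against 3.32 and 3.63 without T121.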

How the data were processed

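RNA of end-stage tumours and of a whole-mouse reference was amplified, labelled with Cy5 and Cy3 and hybridised together on 2-colour oligonucleotide arrays, per the labels' protocols. The deposited array files give each spot's linear intensity and local background intensity in both channels, per the file headers. The deposited log2 ratios of the authors are normalized values of the same arrays, and served as an alternative. The image analysis software is not given in the sources used here. Intensities were background-corrected (normexp, offset 50), which shrinks the ratios of dim spots, and each array was normalized by loess (control and marked spots had weight 0) in limma 3.58.1 under R 4.3.3. Log2 ratios of the 8 arrays were tested against 0 by limma's moderated test (two-sided), and p-values were adjusted by Benjamini and Hochberg's method over all tested spots. Passing means an adjusted p under 0.05, and called means also a mean of at least 1 from 0 on the log2 scale. The difference between 8 and 4 tumours was fitted on the same spots. Spots of a gene were kept separate. Where a list gene had several, the one with the highest mean intensity was used. Names came from GEO's platform annotation, which gave 1 symbol for 18218 spots, several for 16 and none for 4341. RefSeq matched 18175, and no symbol changed. Named genes were the 12 highest and 12 lowest called spots above background in both channels and of 1 sign on all 8 arrays, plus the measured members of 20 marker lists. Others are named as chosen after their values were seen. Of 167 listed genes 139 were tested. The members and lists were chosen with earlier results of these data known. The calculations were tested on simulated data. The other mouse models that the series description mentions were not analysed here.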

Additional observations from a re-analysis of the deposited data

Results flagged for a closer look

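Among 178 spots of listed and named genes, 23 had 1 tumour far from the other 7, where chance alone flags about 1 in 20 groups of values. Over all tested spots the share was 12.7%, and 23 of 178 is close to it. Values are log2 ratios of tumour over reference, with the nearest other tumour after each.

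Replicate 1 was the far tumour in 12. It was high in the keratins Krt19 (3.28, next 0.44), Krt14 (2.81, next 0.36) and Krt17 (1.95, next -0.66) and in the epithelial factors Elf3 (2.71, next 0.95) and Ovol1 (0.72, next 0.22). It was low in Gata3 (-3.01, next 0.94), Csn3 (-0.27, next 4.92), Ccnb2 (-0.21, next 0.47), Ezh2 (-0.29, next 0.49), Brip1 (-0.32, next 0.16), Blm (-0.68, next 0.18) and Ttr (-4.87, next -3.66).

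Replicate 2 was high in Myh11 (-1.29, next -2.26). It was low in Cldn3 (0.44, next 1.80), H2-Ab1 (0.42, next 1.6) and Rad54l (-0.07, next 0.15).

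Replicate 3 was high in Csn2 (7.41, next 2.71), Glycam1 (5.63, next 0.08), Wap (5.46, next 1.47) and Adipoq (-1.11, next -3.47). Replicate 4 was high in Xbp1 (1.72, next 1.24). Replicate 6 was high in Tk1 (1.95, next 1.32) and Snai2 (-1.26, next -1.91).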

How the results depend on the processing

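Spots called higher numbered 1599 with median centring without loess. Among spots above background in both channels on all 8 arrays, 500 were called higher and 476 lower, since that filter removes spots low in the tumours, and by the adjusted p alone 3902 were higher and 4933 lower. Leaving out 1 tumour at a time gave 708 to 797 called higher and 1820 to 1940 called lower. Between the 8 and the 4 tumours, 5 spots passed with the authors' log2 ratios, 1 with all 22 arrays in the fit, and 0 to 60 with 1 tumour left out. Of 3659 values of named genes under the alternatives, 3484 were counted as unchanged, 118 lost the threshold and 51 gained it. Another 6 changed sign and passed in the main or the alternative fit. A change of sign that passed in neither was counted as unchanged, as for Krt19 (0.25 with all tumours, -0.18 without replicate 1). Of the 6, those without centring were Brip1 (-0.0048) and Rad54l (-0.11). Within array set 2 they were Snai1 (-0.016), Cdc6 (-0.055), Bbc3 (0.50) and Lyz2 (-1.01). The cause was not tested. The median of all spots shifted to -0.16 without centring and to 0.09 with median centring. No paired analysis was possible because the labels give no replicate numbers that link tumours across groups. Spots near background limit the size of low ratios.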
